A study of Mus musculus with 22 samples.

Results

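The 6 genes described here are known as interferon-induced antiviral genes: Mx1 and Mx2, Rsad2 (viperin), Cmpk2, Samhd1 and Ifi204. They were taken by gene symbol from the probe table of the array platform, counting probe sets with 1 symbol. The genes were chosen by their responses to interferon-gamma on these same arrays, and each was followed on the probe set selected on the highest mean over the arrays. All 6 of 6 were found among 8251 measured genes. Counts of members past a threshold are therefore descriptions, and tests on them lend no independent support.

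RNA abundance in mouse liver was measured on 22 Affymetrix arrays, 1 per liver sample, as log2 expression. The mice were IFNg-/-, lacking interferon-gamma, or SOCS1-/-IFNg-/-, lacking in addition SOCS1, a feedback inhibitor of JAK kinases. Both groups, controls included, therefore lack their own interferon-gamma, and the signal came from 4 µg of the recombinant protein in 100 µl, injected into the peritoneum. Livers were taken 0.5, 1, 2, 4, 12, 16, 24 and 48 h later, 4 and 12 h after 100 µl of PBS, or without injection, 1 array for each genotype and condition. Age, strain, sex and pooling of mice are not given in the labels used here. Whole liver was hybridised, so more cells of a type and more RNA per cell cannot be told apart.

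Interferon-gamma binds its receptor and signals through the kinases JAK1 and JAK2. GAS and ISRE elements are short sequences in promoters of many interferon-induced genes, and IRF family factors bind ISRE elements. The Mx proteins are dynamin-like GTPases that block viruses. Viperin is a radical SAM enzyme that turns CTP into a chain-terminating nucleotide. Cmpk2 is a mitochondrial kinase of pyrimidine monophosphates. Samhd1 cuts dNTPs and so limits reverse transcription, and Ifi204 is an IFI200 family protein that takes part in DNA sensing.

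In the RefSeq annotation of GRCm38.p6, which is a C57BL/6J genome, Mx1 (chromosome 16, 97447035 to 97462906) and Mx2 (97536081 to 97560901) are both listed as transcribed pseudogenes. Many inbred strains are known to carry defective Mx genes, so the Mx values here are transcript levels. Rsad2 (chromosome 12, 26442743 to 26456452) and Cmpk2 (26469117 to 26479837) are adjacent, with 12664 bases and 0 annotated genes between them. Samhd1 lies on chromosome 2 (157097534 to 157135096) and Ifi204 on chromosome 1 (173747293 to 173767069).

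Promoter windows from 250 bases before to 50 bases after a start were found for 3 of the 6 genes, Rsad2, Cmpk2 and Samhd1 (RefSeq, GRCm38.p6). These 3 are shown because no window was available for Mx1, Mx2 or Ifi204, and they were not picked by their responses. Capitals mark matches to an ISRE core, which is GAAA and GAAA with any 2 bases between them (TTTC and TTTC on the other strand), and to the GAS pattern TTCNNNGAA, searched on both strands. The windows are Rsad2 at chr12:26456403-26456702 on the minus strand, Cmpk2 at chr12:26468965-26469264 on the plus strand and Samhd1 at chr2:157135047-157135346 on the minus strand, all printed 5′ to 3′.
Rsad2: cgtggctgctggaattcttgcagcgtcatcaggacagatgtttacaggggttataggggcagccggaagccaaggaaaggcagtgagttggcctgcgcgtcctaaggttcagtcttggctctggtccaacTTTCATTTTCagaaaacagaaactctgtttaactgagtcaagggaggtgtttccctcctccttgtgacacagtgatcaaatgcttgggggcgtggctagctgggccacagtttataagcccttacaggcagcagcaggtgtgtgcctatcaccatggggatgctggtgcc
Cmpk2: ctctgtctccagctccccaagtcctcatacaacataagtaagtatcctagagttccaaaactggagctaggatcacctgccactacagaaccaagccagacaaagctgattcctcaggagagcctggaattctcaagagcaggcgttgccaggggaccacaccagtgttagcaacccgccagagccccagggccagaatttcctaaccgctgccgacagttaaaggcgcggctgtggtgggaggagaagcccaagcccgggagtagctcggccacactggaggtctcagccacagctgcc
Samhd1: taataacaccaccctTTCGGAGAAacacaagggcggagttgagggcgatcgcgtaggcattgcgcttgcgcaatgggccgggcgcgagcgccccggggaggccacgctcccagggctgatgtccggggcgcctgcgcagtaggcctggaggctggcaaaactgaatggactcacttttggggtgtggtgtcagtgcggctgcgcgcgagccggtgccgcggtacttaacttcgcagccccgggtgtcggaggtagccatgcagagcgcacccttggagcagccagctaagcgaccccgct

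The Rsad2 window held 1 ISRE core, TTTCATTTTC, from base -120 to -111 relative to the start. The Samhd1 window held 1 GAS match, TTCGGAGAA, from -235 to -227. The Cmpk2 window held neither pattern as spelled. Its start lies inside the gene bounds given above, which begin at 26469117. The window therefore reaches less far upstream of the gene than those of Rsad2 and Samhd1. Of all 32851 promoter windows of this length, 3.44% held the ISRE core and 8.3% the GAS pattern. The 2 patterns do not overlap in these windows, and a match is a description of letters only.

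The arrays were alike in scale, with medians from 5.64 to 5.71 and a lowest value of 1.73. The SOCS1-/-IFNg-/- array at 4 h stood furthest from the rest, with a median correlation of 0.972 with the other arrays across genes, and the 4 h responses of the members and gene lists are given with and without it. Socs1 lay between 6.57 and 7.02 on the SOCS1-/-IFNg-/- arrays and between 6.68 and 9.21 on the IFNg-/- arrays. Ifng lay between 2.18 and 2.61 on all arrays. The 8 measured type I interferon genes, whose products induce the same antiviral genes, varied by at most 0.58 each over the 22 arrays. Ifnb1, Ifna4 and Ifna11 among them lay below the array medians on every array. With no detection calls, flat values of such genes cannot show whether they responded. The hepatocyte markers Alb, Apoa1, Ttr, Cps1, Cyp2e1 and Tdo2 had a mean level between 12.16 and 12.48 on every array. Of these 6 markers 0 were called at 2, 4 or 12 h, where 1.24%, 3.14% and 1.31% of all genes were called higher.

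In IFNg-/- livers all 6 transcripts were highest at 2 h, and at 4 h Mx1, Mx2, Rsad2 and Cmpk2 stood within 0.37 of their control means, Samhd1 0.72 and Ifi204 0.92 above them. In SOCS1-/-IFNg-/- livers Mx1, Rsad2, Cmpk2, Samhd1 and Ifi204 were highest at 4 h, and Mx2 was nearly equal at 2 and 4 h. At 24 h 1 of the 6 in IFNg-/- and 0 of the 6 in SOCS1-/-IFNg-/- lay above all 3 controls of their genotype, where 23.3% and 32.8% of all genes did.

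Counted on single arrays against the 3 controls of the genotype, 0 of 6 lay above all controls at 0.5 h in either genotype, where 26% of all genes did in IFNg-/- and 22.9% in SOCS1-/-IFNg-/-. The count was 5 of 6 at 1 h in IFNg-/-, all but Mx1, and 4 of 6 in SOCS1-/-IFNg-/-, all but Mx1 and Samhd1, where 23.4% and 15.5% of all genes did. It was 6 of 6 in both genotypes at 2 h (21% and 21.4% of all genes), 4 h (29.7% and 20.5%) and 12 h (22.2% and 26.6%). At 16 h the genotypes parted, with 2 of 6 in IFNg-/- and 6 of 6 in SOCS1-/-IFNg-/-, where 22.7% and 28.8% of all genes did; that difference was not tested. At 48 h the counts were 1 and 0 of 6, where 24.7% and 26.3% of all genes did.

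**Figure D1:**
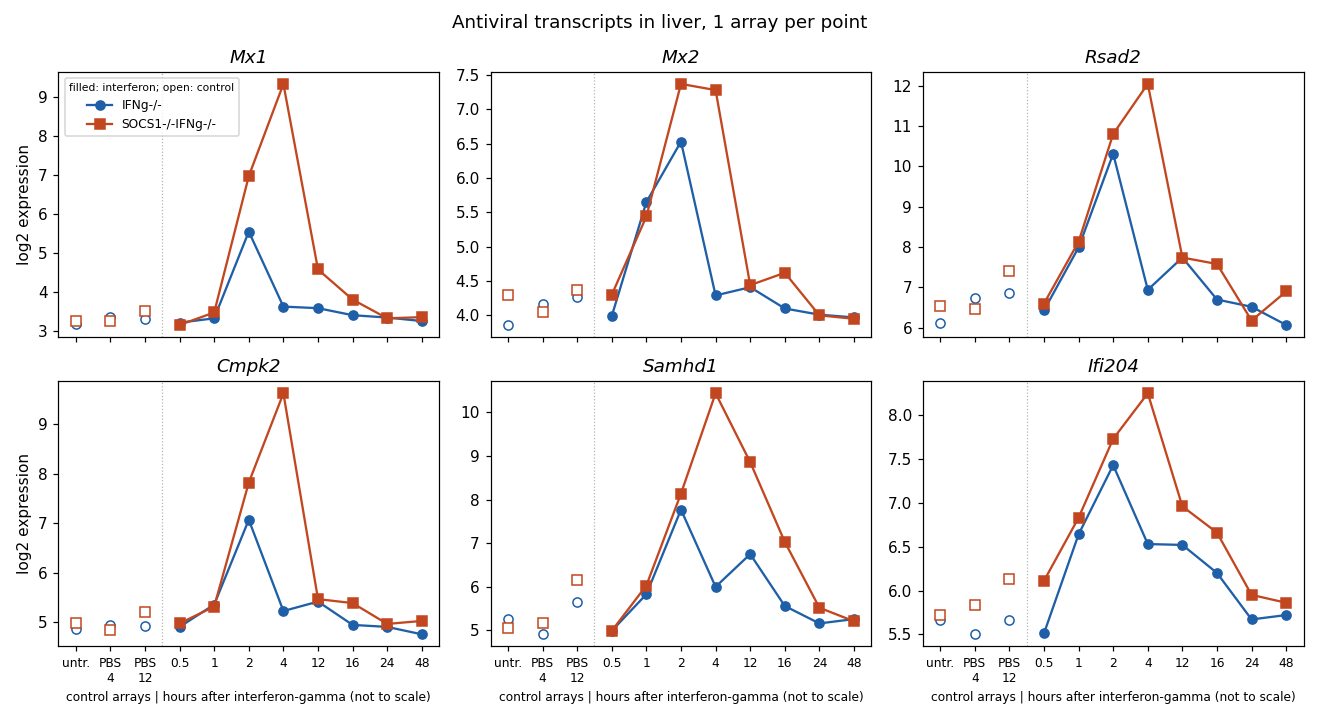
Log2 expression of the 6 genes (vertical axes, own scale per gene) on control arrays (open symbols) and at each hour after interferon-gamma (filled symbols, spacing not to scale), with blue circles for IFNg-/- and red squares for SOCS1-/-IFNg-/-; each point is 1 array. All IFNg-/- curves have their highest point at 2 h, and the Mx1 point at 4 h is 3.63 in IFNg-/- and 9.33 in SOCS1-/-IFNg-/-.

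Mx1 in IFNg-/- was 3.18 untreated, 3.36 and 3.32 at 4 and 12 h of PBS, and 3.22, 3.33, 5.55, 3.63, 3.59, 3.41, 3.35 and 3.26 at 0.5, 1, 2, 4, 12, 16, 24 and 48 h of interferon-gamma. In SOCS1-/-IFNg-/- the same order of arrays gave 3.25, 3.27 and 3.51, and then 3.16, 3.48, 6.97, 9.33, 4.58, 3.81, 3.33 and 3.36. At 1 h its value lay inside the control range in both genotypes, and the 2 h array was the first above that range. The 2 h array exceeded the next highest, 4 h, by 1.92 in IFNg-/-, against a range of 0.18 over the 3 controls. In SOCS1-/-IFNg-/- the 4 h array exceeded the 2 h array by 2.36 and the 2 h array exceeded the 12 h array by 2.39, against a control range of 0.26. Mx1 at 4 h stood 5.99 above its control mean in SOCS1-/-IFNg-/- and 0.35 above it in IFNg-/-. The control levels of Mx1, Mx2 and Cmpk2 lie below the array medians and, with no detection calls, are not shown to be above background, so no fold over them is given. The control means of Samhd1, 5.28 and 5.46, and that of Ifi204 in IFNg-/-, 5.61, lie below those medians too.

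Mx2, the neighbouring gene, was already above controls at 1 h and did not climb further between 2 and 4 h in SOCS1-/-IFNg-/-. In IFNg-/- it was 3.86 untreated, 4.17 and 4.27 on PBS, and 3.99, 5.65, 6.53, 4.29, 4.41, 4.10, 4.01 and 3.97 over the interferon-gamma times. Its SOCS1-/-IFNg-/- values were 4.29 untreated, 4.05 and 4.37 on PBS, and 4.30, 5.44, 7.37, 7.28, 4.44, 4.62, 4.00 and 3.95. The 2 h and 4 h arrays of SOCS1-/-IFNg-/- differed by 0.09, inside the control range of 0.32, whereas both stood at least 1.84 above the 1 h array. At 12 h Mx2 differed by 0.20 from the control mean of SOCS1-/-IFNg-/-, while Mx1 differed by 1.24.

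Rsad2, which encodes viperin, was above controls from 1 h. In IFNg-/- it was 6.13 untreated, 6.73 and 6.85 on PBS, and 6.43, 7.99, 10.31, 6.94, 7.74, 6.70, 6.52 and 6.07 over the interferon-gamma times. The SOCS1-/-IFNg-/- values were 6.54 untreated, 6.46 and 7.41 on PBS, and 6.6, 8.13, 10.80, 12.04, 7.74, 7.58, 6.18 and 6.90. From 2 to 4 h it dropped by 3.37 in IFNg-/-, to 0.09 above the highest control. The 12 h array of IFNg-/- was then 0.80 above the 4 h array, a gap beyond the control range of 0.72. At 1 and 12 h the genotypes differed by 0.14 and 0.00, and at 4 h by 5.10, which is 34.2-fold.

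Cmpk2, next to Rsad2 on chromosome 12, was 4.87 untreated, 4.95 and 4.92 on PBS, and 4.91, 5.36, 7.07, 5.23, 5.42, 4.95, 4.91 and 4.76 over the interferon-gamma times in IFNg-/-. The values without SOCS1 were 4.99 untreated, 4.85 and 5.21 on PBS, and 4.98, 5.32, 7.82, 9.62, 5.47, 5.39, 4.97 and 5.03. Its 4 h array stood 4.61 above the control mean in SOCS1-/-IFNg-/- and 0.31 above it in IFNg-/-. The difference from control means at 1 h was small beside that of its neighbour: limma gave 0.37 ± 0.61 (SE) for Cmpk2 and 1.38 ± 0.71 for Rsad2, neither called. Between 4 and 12 h Cmpk2 dropped by 4.16 and Rsad2 by 4.30 in SOCS1-/-IFNg-/-.

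Samhd1, the dNTP-cutting enzyme, kept the largest difference from controls of the 6 at 12 and 16 h in SOCS1-/-IFNg-/-. In IFNg-/- it was 5.27 untreated, 4.91 and 5.65 on PBS, and 4.99, 5.83, 7.77, 6.0, 6.75, 5.56, 5.16 and 5.26 over the interferon-gamma times. Without SOCS1 it was 5.05 untreated, 5.16 and 6.15 on PBS, and 4.99, 6.03, 8.14, 10.44, 8.86, 7.03, 5.52 and 5.21. At 12 h it stood above the PBS 12 h array by a log2 difference of 2.71 in SOCS1-/-IFNg-/- and 1.10 in IFNg-/-. Against the mean of the untreated and PBS 4 h arrays the log2 differences were 3.75 and 1.66. Those controls lie below the array medians and are not shown to be above background, so no fold over them is given. Between 4 and 12 h it dropped by 1.58 in SOCS1-/-IFNg-/-, from 4.98 to 3.40 above the control mean, whereas Mx1 went from 5.99 to 1.24 and Ifi204 from 2.36 to 1.06. The PBS 12 h arrays, 5.65 and 6.15, were the highest controls in each genotype and widen the control range to 0.74 and 1.10.

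Ifi204 had the smallest excursion. In IFNg-/- it was 5.66 untreated, 5.50 and 5.66 on PBS, and 5.51, 6.64, 7.43, 6.53, 6.52, 6.20, 5.67 and 5.72 over the interferon-gamma times. On SOCS1-/-IFNg-/- arrays it was 5.72 untreated, 5.84 and 6.13 on PBS, and 6.11, 6.83, 7.73, 8.25, 6.96, 6.66, 5.95 and 5.86. At 4 h in IFNg-/- it kept 0.92 of its 1.82 above the control mean, whereas Mx1, Mx2, Rsad2 and Cmpk2 kept 0.19 to 0.37 of 2.16 to 3.74. Over the 11 pairs of arrays that share treatment and time, SOCS1-/-IFNg-/- minus IFNg-/- ran from 0.06 to 1.73 for Ifi204. In controls this difference was 0.29 ± 0.19 and not called by limma.

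Probe sets of the same gene disagreed for Cmpk2, Samhd1 and Ifi204, which have more than 1. The lower probe set of Samhd1 lay between 3.86 and 4.31 on all arrays and differed by -0.19 from controls at 4 h in SOCS1-/-IFNg-/-, where the higher one differed by 4.98. The lower probe set of Cmpk2 differed by 0.97 there, against 4.61. Of the other probe sets of Ifi204, 1 differed by -0.17 and 1 by 0.26, against 2.36 for the one used. The Ifi204 probe set used is of Affymetrix's family type, whose probes can match related genes, and a probe set assigned to Mndal, Ifi211, Ifi205 and Ifi204 together differed by 2.13 at 2 h and 3.0 at 4 h in SOCS1-/-IFNg-/-. Values given for Ifi204 may therefore include related IFI200 transcripts.

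**Figure D2:**
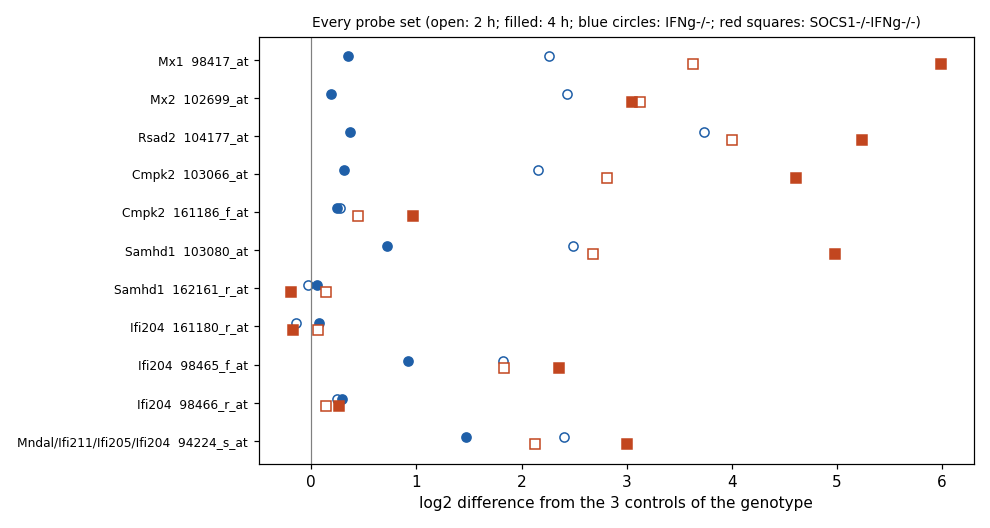
Log2 difference of the 2 h (open) and 4 h (filled) interferon-gamma arrays from the mean of the 3 controls of the same genotype (horizontal axis), for every probe set of the 6 genes and 1 probe set shared by 4 IFI200 genes; blue circles are IFNg-/- and red squares SOCS1-/-IFNg-/-, each from 1 array. The lower probe sets of Samhd1 and Ifi204 stay between -0.19 and 0.29, while those used for the 6 genes reach 2.36 to 5.99 in SOCS1-/-IFNg-/-.

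The response at each time was tested in limma as the mean of both genotypes minus the mean of the 6 control arrays, with a gene called where the p adjusted over all 8251 genes was under 0.05. At 2 h limma called 3 of the 6 genes higher, where 1.24% of all genes were called higher. Rsad2 rose by 3.87 ± 0.71 (SE, adjusted p = 0.0103), Mx2 by 2.78 ± 0.43 (adjusted p = 0.00271) and Ifi204 by 1.82 ± 0.22 (adjusted p = 0.000363). Mx1 differed by 2.95 ± 0.80 (adjusted p = 0.0849), Cmpk2 by 2.48 ± 0.61 (adjusted p = 0.0569) and Samhd1 by 2.59 ± 0.65 (adjusted p = 0.0625), and these were not called. On single arrays, all 6 of 6 were more than 1 above the control mean at 2 h in IFNg-/- and in SOCS1-/-IFNg-/-, where 0.861% and 0.921% of all genes were. The standard errors include the gap between genotypes at 4 h. Without either 4 h array, which takes that gap out of the fit, the same differences had errors of 0.09 to 0.34. All 6 were then called by limma at 2 h, with adjusted p from 1.02e-08 to 0.000224, where 197 of 8251 genes were called higher. Mx2 and Rsad2 lost their calls when either 2 h array was left out, and Rsad2 also with trend and robust fitting (3.87 ± 0.86, adjusted p = 0.0649).

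At 4 h limma called all 6 higher, where 3.14% of all genes were, but the mean hides a split between genotypes. Mx1 rose by 3.17 ± 0.80 (adjusted p = 0.0333), Samhd1 by 2.85 ± 0.65 (adjusted p = 0.0192), Rsad2 by 2.81 ± 0.71 (adjusted p = 0.0336) and Cmpk2 by 2.46 ± 0.61 (adjusted p = 0.0306). Ifi204 rose by 1.64 ± 0.22 (adjusted p = 0.000567) and Mx2 by 1.62 ± 0.43 (adjusted p = 0.041). More than 1 above the control mean were 0 of 6 in IFNg-/-, where 0.4% of all genes were, and 6 of 6 in SOCS1-/-IFNg-/-, where 2.27% were. Without the SOCS1-/-IFNg-/- 4 h array, which leaves 1 array at that time and assumes that it varies like the others, only Ifi204 was called (0.94 ± 0.13, adjusted p = 0.00174). Mx1 was then 0.47 ± 0.32 (adjusted p = 0.592), Rsad2 0.40 ± 0.27 and Samhd1 0.88 ± 0.45. The calls of all but Ifi204 were also lost with trend and robust fitting, where adjusted p ran from 0.0714 to 0.115, or with array weights. The Mx2 call at 4 h was removed by 16 of the 22 single-array omissions. Leaving out the IFNg-/- 4 h array, which again leaves 1 array at that time, gave differences from 2.34 for Ifi204 to 5.86 for Mx1.

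Against PBS livers of the same time, limma called 1 of the 6 at 4 h, Ifi204 (1.72 ± 0.27, adjusted p = 0.0044), where 0.994% of all genes were called higher. The other five differed by 1.68 to 3.18, with adjusted p from 0.0671 to 0.156. Without the IFNg-/- 4 h array, which leaves 1 interferon-gamma array at that time, Mx1 differed by 5.87 ± 0.36. Without the SOCS1-/-IFNg-/- PBS 4 h array, which leaves 1 PBS array, Ifi204 differed by 1.66 ± 0.34 and its call was lost. At 12 h 0 of 6 were called against PBS by limma, where 0.109% of all genes were called higher. At an unadjusted limma p under 0.05 were 2, Samhd1 and Ifi204, beside 7.07% of all genes. Samhd1 differed by 1.90 ± 0.80 there and Mx1 by 0.67 ± 0.98.

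At 1 h limma called 0 of the 6, where 0.158% of all genes were called higher. Mx2 (1.38 ± 0.43) and Ifi204 (0.98 ± 0.22) had an unadjusted limma p under 0.05, as did 4.48% of all genes. Without either 4 h array Mx2, Rsad2 and Ifi204 were called at 1 h, with adjusted p = 0.000455, 0.00239 and 9.65e-05, where 45 of 8251 genes were called higher. Mx1 was the least moved at 1 h, at 0.10 ± 0.80. At 12 h Ifi204 was called (0.99 ± 0.22, adjusted p = 0.038), where 1.31% of all genes were called higher, a call that 15 of the 22 single-array omissions removed. Samhd1 differed by 2.44 ± 0.65 at 12 h (adjusted p = 0.0886) and was called without either 4 h array (adjusted p = 0.000728), where 171 of 8251 genes were called higher. At 0.5, 16, 24 and 48 h limma called 0 of 6, where 0%, 0.388%, 0.158% and 0.0121% of all genes were called higher. At an unadjusted limma p under 0.05 were 0, 1, 0 and 0, beside 5.79%, 8.45%, 9.88% and 6.69% of all genes.

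**Figure D3:**
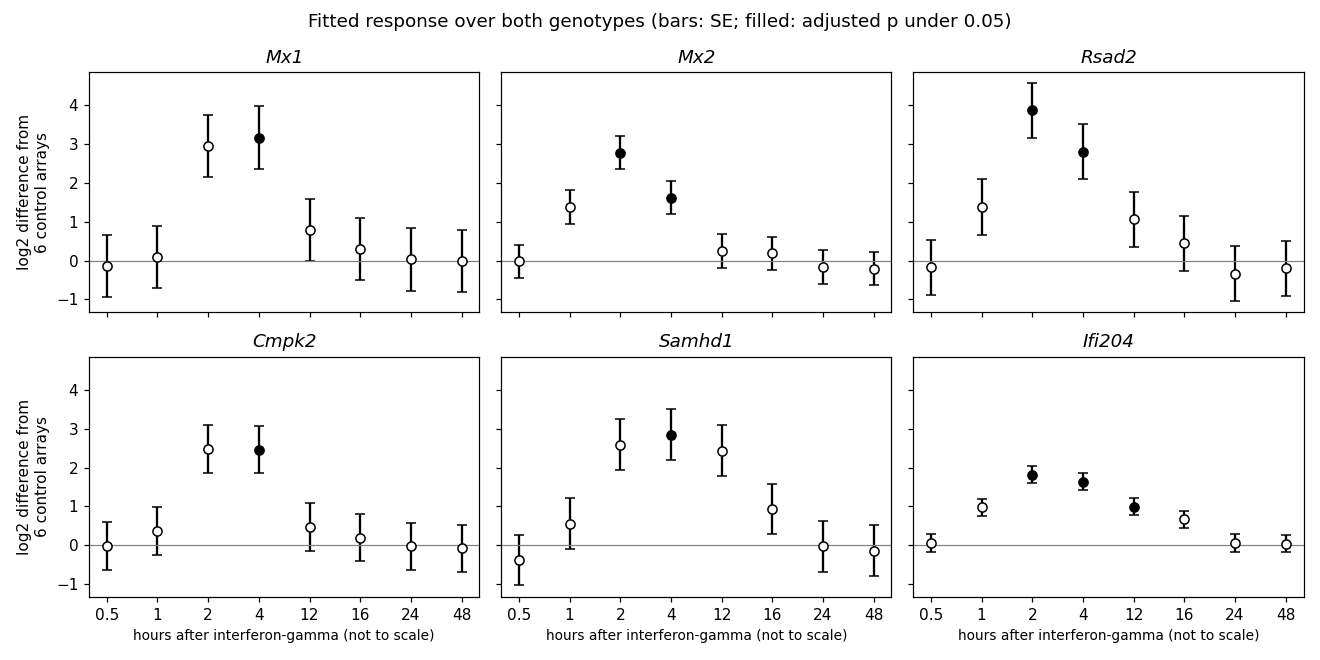
Fitted log2 difference from the 6 control arrays (vertical axis) at each hour after interferon-gamma (horizontal axis, not to scale) over both genotypes, 2 arrays per time; bars are standard errors of the limma fit and filled points are called. All 6 points at 4 h are filled, while at 2 h those of Mx2, Rsad2 and Ifi204 are.

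PBS livers at 12 h gave slightly higher values of these genes than the other controls. Of the 6, limma called 0, where 0.0485% of all genes were called higher. At an unadjusted limma p under 0.05 there were 0, beside 7.01% of all genes. Samhd1 was 0.80 ± 0.69 and Rsad2 0.67 ± 0.75 above the untreated and PBS 4 h arrays, while Mx1 and Cmpk2 were 0.15 above with errors of 0.85 and 0.65.

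The effect of SOCS1 loss was read from the 11 pairs of arrays that share treatment and time, as SOCS1-/-IFNg-/- minus IFNg-/-. At 4 h Mx1 was 5.7 higher without SOCS1, Rsad2 5.10, Samhd1 4.43, Cmpk2 4.40, Mx2 2.99 and Ifi204 1.73. In the other 10 pairs the differences of Mx1 lay between -0.09 and 1.42, of Rsad2 between -0.34 and 0.88 and of Cmpk2 between -0.10 and 0.75. For Mx2 they lay between -0.21 and 0.84, for Samhd1 between -0.22 and 2.10 and for Ifi204 between 0.06 and 0.60. The 4 h pair lay above all other 10 pairs for 6 of the 6, where it did so for 12.6% of all genes. Over all genes, 1.6% were more than 1 higher without SOCS1 at 4 h, and 6 of 6 members were. The median of the 6 was 4.42 at 4 h, beside -0.08 for all genes.

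Tested in limma against the spread of the other 10 pairs, the 4 h difference was called for all 6, where 2.75% of all genes were called higher. The excess over the other pairs was 5.39 ± 0.43 for Mx1 (SE, adjusted p = 4.00e-06), 4.81 ± 0.36 for Rsad2 (adjusted p = 2.67e-06) and 4.21 ± 0.23 for Cmpk2 (adjusted p = 2.11e-07). It was 3.94 ± 0.61 for Samhd1 (adjusted p = 0.00165), 2.81 ± 0.29 for Mx2 (adjusted p = 5.26e-05) and 1.40 ± 0.17 for Ifi204 (adjusted p = 0.00023). The test takes the pairs at other times as its replicates, since 4 h has 1 pair, and the 4 h pair was chosen with earlier results known. With the mean of its probe sets Ifi204 gave 0.36 ± 0.11 and was not called (adjusted p = 0.0975).

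**Figure D4:**
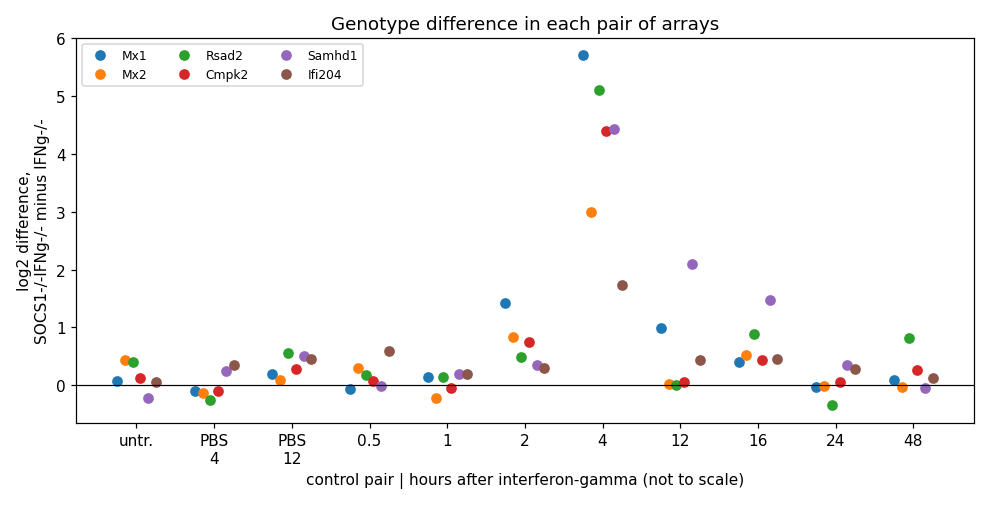
Log2 difference SOCS1-/-IFNg-/- minus IFNg-/- (vertical axis) for the 6 genes in each pair of arrays that share treatment and time (horizontal axis, controls first, then hours after interferon-gamma, not to scale); each point is 1 pair. At 4 h the points lie between 1.73 and 5.7, and the next highest point of all is Samhd1 at 12 h, 2.10.

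Samhd1 differed between genotypes at 12 and 16 h as well, by 2.10 and 1.47. It was the 1 member over 1 at 12 h, where 0.376% of all genes were. Its pairs at control conditions, 0.5 to 2 h and 24 to 48 h lay between -0.22 and 0.50. Mx1 differed by 0.99 and 0.40 at these times, and Rsad2, Cmpk2, Mx2 and Ifi204 by 0.00 to 0.88. For the 4, 12 and 16 h pairs together minus the control pairs, limma called 0 of the 6, where 0% of all genes were called higher. Samhd1 was 2.49 ± 0.54 (adjusted p = 0.207) and Mx1 2.31 ± 1.00 (adjusted p = 0.592). These 2 had an unadjusted limma p under 0.05, as did 7.97% of all genes. Samhd1 was called without the 4 h pair, at 1.61 ± 0.23 (adjusted p = 0.00872), which rests on the 12 and 16 h pairs, and with array weights. In the other 14 of 16 alternatives Samhd1 was not called. Over the alternatives at most 17 of 8251 genes were called higher in this window, the most with array weights. In controls, at 0.5 to 2 h and at 24 to 48 h, limma called 0 of 6 and 0% of all genes higher. At an unadjusted limma p under 0.05 were 0 of 6 each time, beside 4.04%, 2.58% and 7.1% of all genes. The differences in controls were 0.05 to 0.29. At 2 h Mx1 was 1.42 higher without SOCS1, the only member over 1, where 0.0848% of all genes were.

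Between 2 and 4 h the genotypes moved apart. In IFNg-/- 5 of 6 members, all but Ifi204, were lower at 4 h than at 2 h by more than 1, where 0.497% of all genes were. In SOCS1-/-IFNg-/- 4 of 6, Mx1, Samhd1, Cmpk2 and Rsad2, were higher by more than 1, by 2.36, 2.30, 1.80 and 1.24, where 0.861% of all genes were. These 4 did both, as did 0.158% of all genes.

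Of 36 other antiviral genes induced by interferons, 20 were measured, and limma called 4 higher at 2 h and 13 at 4 h, with 0 lower, where 1.24% and 3.14% of all genes were called higher. Without the SOCS1-/-IFNg-/- 4 h array 1 of the 20 was called at 4 h, Ifitm1. Their median difference was 0.50 at 2 h and 0.77 at 4 h, beside 2.68 and 2.63 for the 6 genes and -0.02 and -0.03 for all genes. The largest at 4 h were Ifit1 (2.84 ± 0.70) and Ifit3 (2.74 ± 0.62), which bind viral RNA, the ubiquitin-like modifier Isg15 (2.41 ± 0.55) and Ifit2 (2.41 ± 0.64). Without that array these 4 stood between 0.27 and 0.67 and were not called. In the 4 h pair 13 of the 20 were called higher without SOCS1, where 2.75% of all genes were, Ifit1 by 4.79 ± 0.32. In IFNg-/- at 4 h these 20 genes lay between -0.14 and 0.56 from their controls, and in SOCS1-/-IFNg-/- between 0.02 and 5.22.

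**Figure D5:**
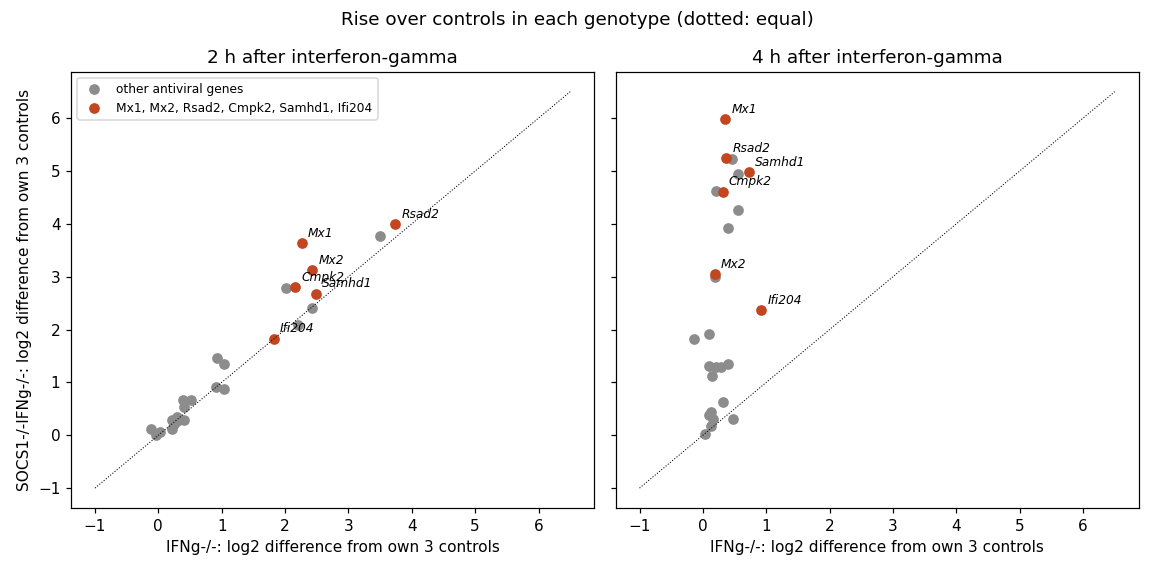
Log2 difference from the 3 controls of the genotype in IFNg-/- (horizontal axis) and SOCS1-/-IFNg-/- (vertical axis) at 2 h (left) and 4 h (right) for the 6 genes (red, named) and 20 other antiviral genes (grey); each point is 1 gene from 1 array per genotype, and the dotted line marks equal values. At 2 h Mx1 stands at 2.26 in IFNg-/- and 3.63 in SOCS1-/-IFNg-/-, and at 4 h the 6 genes stand between 0.19 and 0.92 in IFNg-/- and between 2.36 and 5.99 in SOCS1-/-IFNg-/-.

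Of 13 measured factors of interferon signalling, 4 were called higher at 2 h and 6 at 4 h, beside the same 1.24% and 3.14% of all genes, and 1 at 4 h, Socs3 (1.13 ± 0.20), without the SOCS1-/-IFNg-/- 4 h array. The transcription factor Irf1 rose by 3.43 ± 0.42 at 2 h and 2.17 ± 0.42 at 4 h, and Irf8 by 2.34 ± 0.35 and 1.73 ± 0.35. Irf9, another factor of the IRF family, rose by 0.57 ± 0.10 at 2 h, and Irf7 by 1.12 ± 0.23 and Socs3 by 1.5 ± 0.18 at 4 h. In the 4 h pair Irf1, Irf7, Irf8 and Jak2 were called higher without SOCS1.

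Relatives of the members by family or pathway mostly did not pass the test. Of 16 measured enzymes of nucleotide and dNTP supply, limma called 1 higher at 2 h, and 1 higher and 1 lower at 4 h. Over all genes 1.24% were called higher at 2 h, and at 4 h 415 of 8251 were called, 259 of them higher. Pnp, the purine nucleoside phosphorylase, rose by 1.17 ± 0.23 at 2 h and 0.93 ± 0.23 at 4 h, and it was 1.34 ± 0.25 higher without SOCS1 in the 4 h pair. The thymidine kinase Tk1 fell by 0.34 ± 0.08 at 4 h. Without the SOCS1-/-IFNg-/- 4 h array 0 of the 16 were called at 4 h, with Pnp at 0.26 ± 0.18 and Tk1 at -0.34 ± 0.11. Cmpk1, the cytosolic relative of Cmpk2, stayed between 7.33 and 7.96 on all arrays. Of 4 measured dynamins and mitofusins, relatives of the Mx proteins, 0 were called at any time, and Ifi202b, the 1 measured gene of the IFI200 list, lay between 2.23 and 2.74. Those values are near the lowest on the arrays, 1.73, and cannot show whether Ifi202b responded. Of 2 further IFI200 genes measured beside Ifi204 on chromosome 1 and noticed after their values were seen, Ifi207 rose by 0.81 ± 0.15 at 2 h (adjusted p = 0.0133), and Ifi209 differed by 0.28 ± 0.07 (adjusted p = 0.0501).

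Of 9 measured Kupffer cell and macrophage markers 1, C1qb, was called higher at 4 h, and of 7 monocyte and dendritic cell markers 1, Cd14, where 3.14% of all genes were. Both calls were lost without the SOCS1-/-IFNg-/- 4 h array (C1qb 0.36 ± 0.15, Cd14 0.39 ± 0.10). Over the macrophage list the mean level lay between 6.81 and 7.09 on control arrays and was 7.0 in IFNg-/- and 7.20 in SOCS1-/-IFNg-/- at 4 h. For the monocyte list it lay between 5.32 and 5.52 on controls and was 5.59 and 5.49. Of 8 neutrophil, 5 T cell, 5 NK cell and 4 B cell markers 0 were called at 2, 4 or 12 h, where 1.24%, 3.14% and 1.31% of all genes were called higher. The neutrophil list had a mean level between 5.39 and 5.53 on controls, and its 2 h and 4 h arrays all stood above them (5.60 on both IFNg-/- arrays, 5.63 and then 5.66 without SOCS1); the highest array reached 5.81. The part of cell numbers in the changes was not tested.

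The genes whose pattern over the 22 arrays was most like each member were found by Pearson's r, given as a description. These arrays share the same few high libraries, and r without the 2 arrays furthest from the member's median is given beside it. Mx1 and Cmpk2 were each other's closest match (0.988, and 0.924 without them). Rsad2 was closest to Ifit1 (0.988, 0.967), then to the chemokine gene Cxcl10 and to Mx2. Mx2 was closest to Cxcl10 (0.972, 0.964) and then to Rsad2 and Trim21. Samhd1 was closest to Pnpt1 (0.963, 0.904), followed by Ifit3 and Isg15, and Ifi204 to Irgm1 (0.961, 0.944), followed by Gbp7 and Tap1. The neighbours Mx1 and Mx2 had an r of 0.865 with each other, and Rsad2 and Cmpk2 0.960.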

How the data were processed

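Per the labels' protocols, Trizol and RNeasy RNA was made into biotin-labelled cRNA. The authors deposited log2 expression per probe set, with nearly equal medians over arrays, and affy is the tool given in the submitters' processing notes. How background, normalization and summary were done is not given in the sources used here, and no detection calls were used. Of 12488 probe sets, 66 controls were left out and 10833 carried 1 symbol, giving 8251 genes by the probe set with the highest mean. Symbols follow the platform's probe table, checked against RefSeq of GRCm38.p6.

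The tests were made with limma 3.58.1 under R 4.3.3, using lmFit and eBayes; p-values were adjusted by Benjamini-Hochberg across all genes and called under 0.05. Responses were fitted on all 22 arrays with condition plus genotype (10 residual degrees of freedom), so the 2 genotypes stand in for replicates. Genotype differences were fitted on the 11 pairs by window (7 degrees of freedom) or for the 4 h pair against the others (9). With 1 array per genotype and condition, these p-values do not measure the spread between livers treated alike. In the response fit the residual holds genotype differences that vary between conditions. In the pair fits it holds differences between pairs of other conditions. The number of arrays limits the precision. On simulated data with 8251 genes, limma recovered 98% of genes changed by 1 in the 4 h response; this does not carry over to the members, whose standard errors of 0.22 to 0.80 compare with a median of 0.09 over all genes.

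The members, gene lists, windows and comparisons were chosen with earlier results of these data known. The rule on single arrays of a log2 difference over 1 and the flanking genes were chosen after the values were seen. Genes named are the members, Socs1 and Ifng, the 3 genes most like each member, and up to 4 genes per list called at 4 h by size; Cmpk1, C1qb, Cd14, Irf9 and the marker genes were named outside that rule. The alternatives were leaving out arrays or pairs, the mean of all probe sets, quantile normalization, trend and robust fitting, array weights, a filter on dim genes (highest array at least 6) and other control arrays.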

Additional observations from a re-analysis of the deposited data

Results flagged for a closer look

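All 6 genes differed between the genotypes in their response at 4 h: the difference of the 4 h pair, SOCS1-/-IFNg-/- minus IFNg-/-, was set against that of the other 10 pairs and called by limma. Pairs at other times stood in for replicates of this 1 pair. The genes and the 4 h pair were chosen with earlier results of these data known, so the calls lend no independent support. The excess was 5.39 for Mx1, 4.81 for Rsad2, 4.21 for Cmpk2, 3.94 for Samhd1, 2.81 for Mx2 and 1.40 for Ifi204, where 2.75% of all genes were called higher. With the mean of its probe sets Ifi204 was not called (0.36 ± 0.11, adjusted p = 0.0975). Both 4 h interferon-gamma livers are 1 array each, and the SOCS1-/-IFNg-/- one stands furthest from the other arrays. From 4 to 12 h in IFNg-/-, Rsad2 rose by 0.80, Samhd1 by 0.75, Cmpk2 by 0.19 and Mx2 by 0.12. Mx1 and Ifi204 changed by -0.04 and -0.01. Whether either 4 h liver was atypical was not tested.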

How the results depend on the processing

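Counts of members called depended most on the 4 h arrays and on the variance model. With array weights limma called 2 members at 1 h (0 otherwise), 6 at 2 h (3 otherwise), 1 at 4 h (6 otherwise), 2 at 12 h (1 otherwise) and 1 in the 4 to 16 h genotype window (0 otherwise). With trend and robust fitting it called 2 at 2 h, 1 at 4 h and 0 at 12 h. Without both PBS 12 h arrays 2 were called at 4 h, and without both untreated arrays 2 at 4 h and 0 at 12 h. Over fits that left out 1 array, the counts ran from 0 to 3 for the 1 h response, from 1 to 6 for both the 2 h and the 4 h response, from 0 to 3 for 12 h and from 0 to 1 for 16 h; against PBS they ran from 0 to 6 at 4 h and 0 to 1 at 12 h. Over fits that left out 1 pair they ran from 0 to 1 in the 4 to 16 h window. Besides the SOCS1-/-IFNg-/- 4 h array, the count at 4 h was 1 without its untreated array and 2 without either of its PBS arrays. No called difference changed direction under the alternatives run. Quantile normalization and the filter on dim genes gave the same counts of members throughout. Array weights called 39, 239, 66 and 119 of 8251 genes higher at 1, 2, 4 and 12 h. The main fit called 13, 102, 259 and 108. In the 4 to 16 h genotype window array weights called 17 genes higher and the main fit 0. Trend and robust fitting called 83 genes higher at 2 h, 221 at 4 h and 97 at 12 h. Over all genes, 259 were called higher at 4 h (48 without the SOCS1-/-IFNg-/- 4 h array, 510 without the IFNg-/- one), and 102 at 2 h (22 without the IFNg-/- 2 h array, 239 with array weights). The labels give no replicate numbers, so genotypes were paired by treatment and time.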

Other observations

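The measured genes that flank the members on the chromosome, up to 3 on each side, were mostly not called at 2 or 4 h. Fam3b, which lies between Mx1 and Mx2, differed by -0.09 ± 0.12 at 4 h, and Tmprss2, just beyond Mx2, by -0.11 ± 0.09. Around Rsad2 and Cmpk2, Id2 rose by 0.82 ± 0.14 at 4 h (limma, adjusted p = 0.00404; 0.78 ± 0.20 and 0.1 without the SOCS1-/-IFNg-/- 4 h array), while Rrm2 differed by -0.14 ± 0.11 and Sox11 by 0.33 ± 0.11, neither called. Next to Samhd1, Rbl1 differed by 0.35 ± 0.14 (adjusted p = 0.185). Beside Ifi204, the family member Ifi207 rose by 0.81 ± 0.15 at 2 h (adjusted p = 0.0133) and 0.60 ± 0.15 at 4 h (adjusted p = 0.0362; 0.17 ± 0.13 and 0.635 without that array), and Ifi209 differed by 0.28 ± 0.07 at 2 h (adjusted p = 0.0501).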
